A study of Mus musculus with 12 samples.

Results

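The Toll-like receptor genes Tlr1, Tlr2, Tlr3, Tlr4, Tlr6, Tlr7, Tlr8 and Tlr9, the adaptor gene Myd88 and the chaperone gene Unc93b1 were followed in mouse skin treated with imiquimod (IMQ), a small molecule that acts on TLR7. These 10 genes, of 18193 measured, were taken by name, and each was represented by the probe set that was annotated to it alone and had the highest mean over all 12 arrays. Whole-skin RNA had been hybridised to Affymetrix mouse arrays, 3 arrays in each of 4 groups: Ahr-/- mice given IMQ and sampled on day 2, Ahr+/- mice given IMQ and sampled on day 2, untreated Ahr-/- mice and untreated Ahr+/- mice. The Ahr-/- mice lack the aryl hydrocarbon receptor (AhR) in all cells, the Ahr+/- controls were littermates with 1 intact allele, and no group was wild type. IMQ was given daily as Aldara cream on shaved back skin, and no group received a cream without IMQ, so the effect of IMQ and that of the cream or its application cannot be told apart. The ages of the mice are not given in the sources used here. Replicates are called biological in the labels, with no animal named, so the p-values measure only the spread between these arrays.

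Toll-like receptors are membrane proteins that recognise conserved microbial molecules. TLR1, TLR2, TLR4 and TLR6 sit mainly at the cell surface and bind lipopeptides or lipopolysaccharide, whereas TLR3, TLR7, TLR8 and TLR9 reside in endosomes and bind nucleic acids, and UNC93B1 is the chaperone that carries the endosomal receptors there from the endoplasmic reticulum. All of these receptors except TLR3 signal through MyD88, which recruits IRAK kinases and leads to activation of NF-kB, AP-1 and, from the endosomal receptors, interferon regulatory factors. In skin they are found on keratinocytes, endothelial cells and resident and recruited leukocytes, and because the RNA came from whole skin, more or fewer cells of a type and more or less RNA per cell cannot be told apart.

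Values are log2 signals, so a difference of 1 is a doubling, and a gene was called changed at an adjusted p under 0.05 (limma with Benjamini-Hochberg adjustment over all genes) and a fold of at least 1.5. Median array signals lay between 7.38 and 7.56, and keratinocyte marker genes averaged 11.8 to 13.7 on every array. Untreated Ahr+/- replicate 2 had the lowest signal of the 12 arrays for 8 of the 10 genes, all except Tlr8 and Tlr9, and untreated Ahr+/- replicate 1 the highest of its group for 8 of 10, so that this group was the most widely spread for most of the genes. A set of 9 genes of growing hair follicles averaged 12.6 on that same untreated Ahr+/- replicate 2 and 8.42 and 8.87 on replicates 1 and 3. In the 3 other groups it averaged 5.72 to 8.18. The part of this in the differences from untreated Ahr+/- skin was not tested. The log2 signal of the 3' Gapdh control set minus that of the 5' set, which tracks RNA or labelling quality, was 1.17 and 1.52 on IMQ-treated Ahr-/- replicates 1 and 2, against 0.281 on replicate 3 and 0.137 to 0.527 on the 9 other arrays. The Ahr probe set read 9.07 to 9.87 in IMQ-treated Ahr-/- and 9.79 to 10.27 in IMQ-treated Ahr+/- skin, and 11.29 to 11.44 in untreated Ahr-/- and 10.11 to 11.30 in untreated Ahr+/- skin, and since its position relative to the deleted part was not determined it does not check the genotype labels.

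Of the 10 genes, the surface receptor genes Tlr1, Tlr2 and Tlr6 and the adaptor gene Myd88 were called changed with their brightest probe sets, all as higher. In Ahr-/- skin, IMQ raised Tlr1, Tlr2, Tlr6 and Myd88, 4 of the 10 genes, where 22.7% of all genes were called in either direction and 10.6% as higher. IMQ raised Tlr1 and Myd88 in Ahr+/- skin, 2 of 10, where 9.05% of all genes were called and 5.22% as higher. Between the genotypes on day 2 of IMQ, Tlr6 and Tlr2 were higher in skin of Ahr-/- mice, 2 of 10, where 3.98% of all genes were called and 2.12% as higher. No call was made among the genes of the endosomal receptors, Tlr7 included, or Unc93b1 in any comparison when the brightest probe set was read and all arrays weighed the same. With weights estimated for each array, Tlr3 and Unc93b1 were called lower after IMQ in Ahr-/- skin, with differences of -0.73 (adjusted p = 0.00208) and -0.64 (adjusted p = 0.0341), and Tlr2 was called higher in Ahr+/- skin (0.59, adjusted p = 0.0296). The median difference of the 10 genes was 0.20 under IMQ in Ahr-/- skin, against 0.07 over all genes, 0.54 in Ahr+/- skin, against -0.01 over all genes, and 0.15 between the genotypes on day 2, against 0.06 over all genes.

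**Figure D1:**
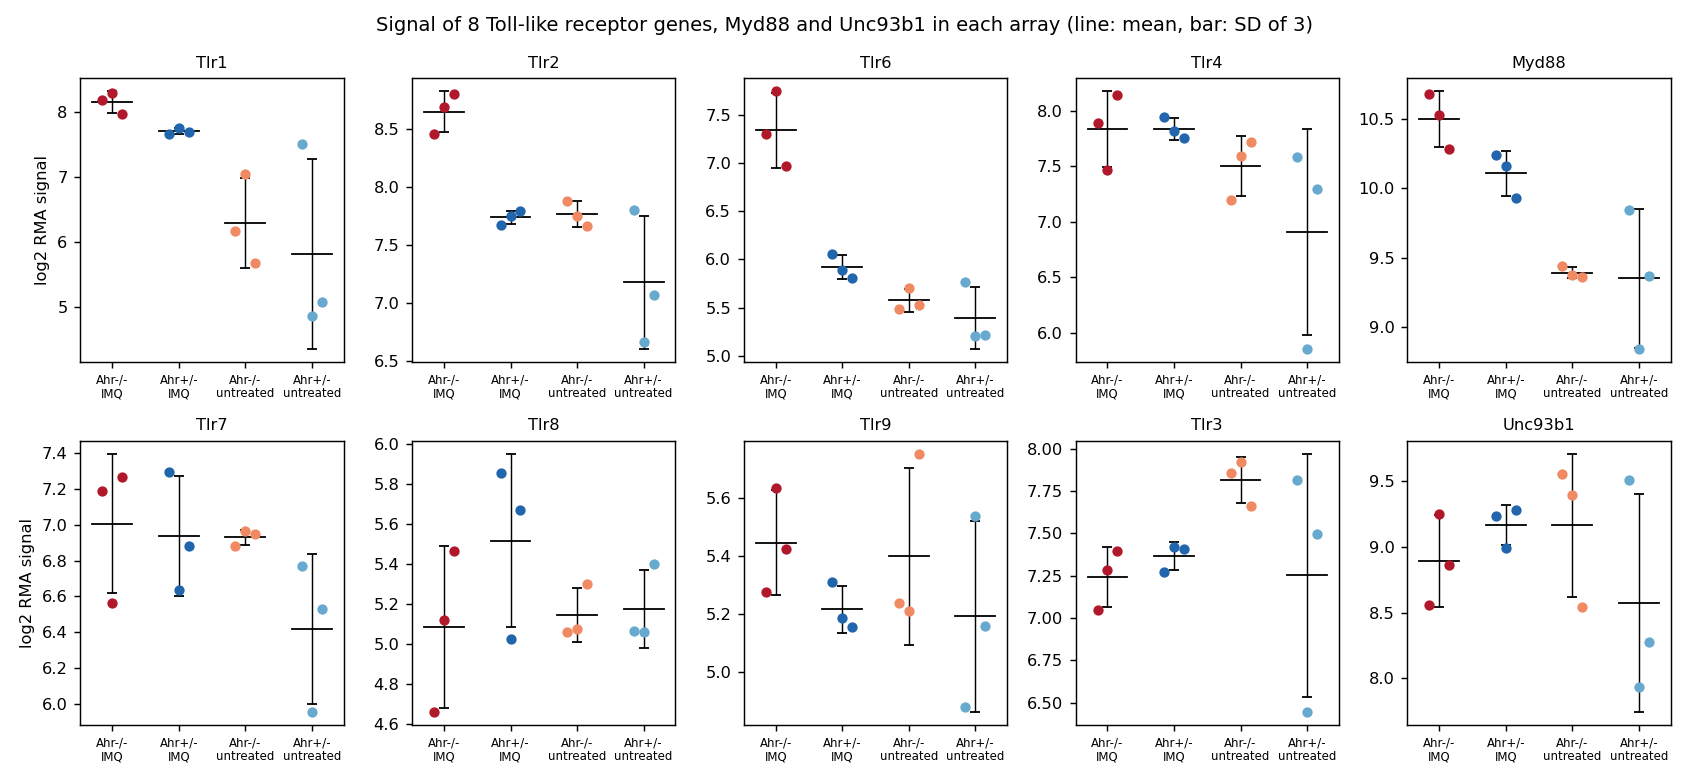
Each panel plots the log2 RMA signal of 1 gene on every array (points) in IMQ-treated Ahr-/-, IMQ-treated Ahr+/-, untreated Ahr-/- and untreated Ahr+/- skin, with the mean (line) and SD (bar) of 3 arrays, and each panel has its own scale that does not start at 0. Tlr6 lies between 6.97 and 7.75 in IMQ-treated Ahr-/- skin, above the 9 other arrays, while the treated and untreated arrays of Tlr7 overlap in both genotypes.

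Promoters were read for 3 motifs, and those of Tlr2, Tlr6 and Myd88 that held a match at the first listed start are printed here because these genes rose together in Ahr-/- skin. The 250 bases before a RefSeq transcription start (build GRCm38.p6) are given 5' to 3' on the gene's strand, with the matched letters in capitals. The motifs, searched on both strands, were NF-kB (GGG and CC with any 5 bases between them), AP-1 (TGANTCA) and the interferon-stimulated response element ISRE (2 copies of GAAA with any 2 bases between them), which 45.8%, 6.75% and 2.98% of 32851 promoters of this length held.
Tlr2, chr3:83841609-83841858, minus strand, NF-kB matches in capitals: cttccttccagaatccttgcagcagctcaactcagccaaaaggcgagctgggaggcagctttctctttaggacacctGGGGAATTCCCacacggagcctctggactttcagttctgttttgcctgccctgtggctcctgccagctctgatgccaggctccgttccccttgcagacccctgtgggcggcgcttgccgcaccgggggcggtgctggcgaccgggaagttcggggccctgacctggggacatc
Tlr6, the first of 2 starts, chr5:64959167-64959416, minus strand, ISRE matches in capitals: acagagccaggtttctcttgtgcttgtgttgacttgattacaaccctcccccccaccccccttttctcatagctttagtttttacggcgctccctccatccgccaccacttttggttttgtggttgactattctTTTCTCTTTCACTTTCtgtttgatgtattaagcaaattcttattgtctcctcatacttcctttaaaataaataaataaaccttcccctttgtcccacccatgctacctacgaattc
Myd88, chr9:119340019-119340268, minus strand, ISRE match in capitals: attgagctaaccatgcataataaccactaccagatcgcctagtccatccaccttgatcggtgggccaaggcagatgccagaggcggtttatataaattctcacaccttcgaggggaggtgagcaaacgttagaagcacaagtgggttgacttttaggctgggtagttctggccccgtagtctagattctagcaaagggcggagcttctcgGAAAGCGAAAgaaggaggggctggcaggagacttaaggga

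The capitals in Tlr2 are 3 overlapping matches to the NF-kB motif. Those in Tlr6 are 2 overlapping ISRE matches on the opposite strand, from 116 to 101 bases before the start, and that in Myd88 is 1 ISRE match from 40 to 31 bases before the start. The second Tlr6 start had 1 NF-kB match, and neither of the 2 Tlr1 starts had a match to any of the 3 motifs. Matches were not limited to genes that rose, since the promoter of Tlr3 held 2 separate NF-kB matches and that of Tlr9 1 AP-1 site. The AP-1 motif reads the same on both strands, so that site matched on each. The promoter of Tlr8 held no match. Promoters of 7 of the 10 genes were matched by symbol, those of Tlr4, Tlr7 and Unc93b1 were not read here, and a match is a run of letters and not a measured binding site.

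Tlr7 encodes the receptor that IMQ acts on, and its signal did not pass the test in either genotype. Tlr7 read 7.19, 6.56 and 7.27 in IMQ-treated Ahr-/- skin, against 6.88, 6.96 and 6.95 in untreated Ahr-/- skin. The treated arrays lay on both sides of the untreated ones, and the difference was 0.07 ± 0.24 (SE, n = 3 each, adjusted p = 0.848), with a 95% interval of -0.45 to 0.60. With the Gapdh difference as a covariate it was 0.365 ± 0.303 (adjusted p = 0.501), and without IMQ-treated Ahr-/- replicates 1 and 2 it was 0.336. Among Ahr+/- mice Tlr7 read 7.30, 6.64 and 6.88 after IMQ and 6.77, 5.96 and 6.53 without treatment. These groups overlapped as well, at a difference of 0.52 ± 0.24 (adjusted p = 0.208; 95% interval -0.01 to 1.04). On day 2 of IMQ the Ahr-/- mean of 7.01 ± 0.39 and the Ahr+/- mean of 6.94 ± 0.33 (SD, n = 3 each) lay near each other, 0.07 apart with an interval of -0.46 to 0.59. This difference was 0.427 with the Gapdh covariate (adjusted p = 0.946) and 0.33 without IMQ-treated Ahr-/- replicates 1 and 2. In descending order the group means were 7.01 in IMQ-treated Ahr-/-, 6.94 in IMQ-treated Ahr+/-, 6.93 in untreated Ahr-/- and 6.42 in untreated Ahr+/- skin, and no comparison between groups of this order passed the test. All 3 untreated Ahr-/- arrays stood above the 3 untreated Ahr+/- arrays for Tlr7 (adjusted p = 0.756), which held for 5.03% of all genes.

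Tlr7 has another pair of probe sets on the array, both dim. The first of these, whose suffix (x) marks probes that may also match other sequences, read 5.09, 5.59 and 4.77 in IMQ-treated Ahr-/- skin, against 4.46, 4.50 and 4.57 in untreated Ahr-/- skin, a difference of 0.64 ± 0.18 (adjusted p = 0.0229 over all probe sets). The 3 treated Ahr-/- arrays were also above the IMQ-treated Ahr+/- arrays, which read 4.51, 4.38 and 4.27, a difference of 0.76 ± 0.18 (adjusted p = 0.0401). The remaining set differed by 0.23 ± 0.16 under IMQ in Ahr-/- skin (adjusted p = 0.326). Among the treated Ahr-/- arrays the values of the first dim set had the same order as the Gapdh difference, which was 1.17, 1.52 and 0.281, and its part in the result was not tested. The brighter set gave no such difference, and which transcripts the dim sets measure was not tested.

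The other endosomal receptor genes likewise gave no call. Tlr8, which neighbours Tlr7 on chromosome X and whose human product binds single-stranded RNA, read 4.66, 5.12 and 5.47 in IMQ-treated Ahr-/- skin and 5.06, 5.07 and 5.30 in untreated Ahr-/- skin, a difference of -0.06 ± 0.23 (adjusted p = 0.871). It read 5.85, 5.03 and 5.67 in IMQ-treated Ahr+/- skin, against 5.07, 5.06 and 5.40 in untreated Ahr+/- skin (difference 0.34 ± 0.23, adjusted p = 0.415), and between the genotypes on day 2 the difference was -0.43 with an interval of -0.94 to 0.08. Tlr9, the receptor for unmethylated CpG DNA, lay between 4.88 and 5.75 on all 12 arrays, and its differences under IMQ were 0.05 ± 0.19 in Ahr-/- and 0.02 ± 0.19 in Ahr+/- skin (adjusted p = 0.885 and 0.965). The groups of both genes overlapped in every comparison.

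Tlr3, the receptor for double-stranded RNA that signals through TRIF instead of MyD88, was the 1 gene of the 10 whose IMQ-treated arrays all lay below the untreated arrays, in Ahr-/- skin. Tlr3 read 7.05, 7.28 and 7.40 in IMQ-treated Ahr-/- skin, against 7.86, 7.92 and 7.66 in untreated Ahr-/- skin. The groups did not overlap, as for 21.1% of all genes in this direction, but the difference of -0.57 ± 0.27 did not pass the test (adjusted p = 0.139). Among Ahr+/- mice it read 7.27, 7.42 and 7.41 after IMQ and 7.82, 6.45 and 7.49 without treatment, a difference of 0.11 ± 0.27 (adjusted p = 0.851). A second, dimmer Tlr3 set was called lower after IMQ in Ahr-/- skin: it read 5.47, 5.36 and 6.002 in IMQ-treated and 6.29, 6.70 and 6.51 in untreated Ahr-/- skin, a difference of -0.89 ± 0.26 (adjusted p = 0.028). Its treated values had the reverse order of the Gapdh difference of those arrays, and the part of that difference in the result was not tested. The same set differed by 0.51 ± 0.26 in Ahr+/- skin (adjusted p = 0.252), and the difference between the responses of the genotypes, -1.40 ± 0.37, did not pass the test (adjusted p = 0.0941). Both Tlr3 sets thus had lower values after IMQ in Ahr-/- skin. The dimmer one passed the threshold, the brighter one passed it with array weights (-0.73, adjusted p = 0.00208), and so did the mean of the Tlr3 sets (-0.73, adjusted p = 0.0343). In 23 of 26 alternative settings of the processing Tlr3 was not called. The brighter set differed by -0.51 with the Gapdh difference as a covariate (adjusted p = 0.427). Without IMQ-treated Ahr-/- replicates 1 and 2 that set differed by -0.41.

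Unc93b1 gave no call in the 5 comparisons when all arrays weighed the same. It read 8.56, 9.25 and 8.87 in IMQ-treated Ahr-/- skin, against 9.56, 9.39 and 8.55 in untreated Ahr-/- skin (difference -0.27 ± 0.36, adjusted p = 0.619). Among Ahr+/- mice it read 9.23, 8.995 and 9.28 after IMQ and 9.51, 7.93 and 8.28 without treatment (difference 0.59 ± 0.36, adjusted p = 0.35). The highest untreated array of each genotype exceeded all 3 treated arrays of that genotype. With array weights the difference in Ahr-/- skin was -0.64 (adjusted p = 0.0341), and the difference between the responses, -0.87 ± 0.51 with equal weights (adjusted p = 0.414), was -1.30 (adjusted p = 0.0348).

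Among the surface receptors, Tlr6 had the smallest adjusted p of the 10 genes. TLR6 pairs with TLR2 to bind diacylated lipopeptides, and its gene is the one printed with a pair of ISRE matches. Tlr6 read 7.31, 7.75 and 6.97 in IMQ-treated Ahr-/- skin, against 5.49, 5.71 and 5.53 in untreated Ahr-/- skin. The treated values had the same order as the Gapdh difference of those arrays, which was 1.17, 1.52 and 0.281. Every treated array stood more than 1 log2 unit above every untreated one, and the difference was 1.77 ± 0.21 (SE, n = 3 each), a fold of 3.40 (adjusted p = 8.24e-05). In IMQ-treated Ahr+/- skin Tlr6 read 6.05, 5.89 and 5.81, against 5.77, 5.20 and 5.21 in untreated Ahr+/- skin. These groups did not overlap either, but the difference of 0.52 ± 0.21 did not pass the test (adjusted p = 0.13). On day 2 the 3 Ahr-/- arrays lay above the 3 Ahr+/- arrays, the Ahr-/- mean being 7.34 ± 0.39 and the Ahr+/- mean 5.92 ± 0.12 (SD), a difference of 1.42 ± 0.21 and a fold of 2.68 (adjusted p = 0.00272). The difference between the responses of the genotypes was 1.24 ± 0.29 (95% interval 0.61 to 1.87), larger in Ahr-/- skin, and it missed the threshold after adjustment over all genes (adjusted p = 0.059). It passed when untreated Ahr+/- replicate 1 (adjusted p = 0.0462) or IMQ-treated Ahr-/- replicate 3 (adjusted p = 0.0266) was left out, and was 0.83 with the Gapdh difference as a covariate (adjusted p = 0.523). Without treatment Tlr6 differed between the genotypes by 0.18 ± 0.21 (adjusted p = 0.907).

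Tlr2, printed with the NF-kB matches, encodes the shared partner of TLR1 and TLR6. It read 8.46, 8.69 and 8.80 in IMQ-treated Ahr-/- skin, against 7.88, 7.76 and 7.66 in untreated Ahr-/- skin. The groups did not overlap, and Tlr2 rose by 0.88 ± 0.23, a fold of 1.85 (adjusted p = 0.0124). The Ahr+/- arrays read 7.68, 7.75 and 7.79 after IMQ and 7.80, 6.67 and 7.07 without treatment, where the highest untreated array exceeded all treated ones and the difference was 0.56 ± 0.23 (adjusted p = 0.144). Between the genotypes on day 2 Tlr2 was 0.91 ± 0.23 higher in Ahr-/- mice, a fold of 1.88 (adjusted p = 0.0443), again without overlap. The untreated genotypes differed by 0.59 ± 0.23 (adjusted p = 0.727), and the difference between the responses was 0.32 ± 0.32 (adjusted p = 0.645), so a larger response of Tlr2 in Ahr-/- skin was not shown.

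Tlr1, which pairs with TLR2 to bind triacylated lipopeptides and lies beside Tlr6 on chromosome 5, rose with IMQ in both genotypes. It read 8.20, 8.30 and 7.97 in IMQ-treated Ahr-/- skin, against 6.16, 7.04 and 5.67 in untreated Ahr-/- skin, a difference of 1.87 ± 0.55 and a fold of 3.65 (adjusted p = 0.023). The Ahr+/- arrays read 7.67, 7.76 and 7.70 after IMQ and 7.51, 4.86 and 5.07 without treatment, a difference of 1.90 ± 0.55 and a fold of 3.73 (adjusted p = 0.046). The treated arrays of each genotype were tightly grouped and above all of their untreated arrays, while untreated Ahr+/- skin had an SD of 1.47, its replicate 1 lying close to the treated arrays. On day 2 all 3 Ahr-/- arrays lay above the 3 Ahr+/- arrays, but the difference of 0.45 ± 0.55 did not pass the test (adjusted p = 0.67). The responses of the genotypes differed by -0.03, with an interval of -1.71 to 1.65.

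Tlr4, the lipopolysaccharide receptor, gave no call with its brightest set and 2 calls with another of almost the same mean signal. With the brightest set Tlr4 read 7.89, 7.47 and 8.14 in IMQ-treated Ahr-/- skin and 7.20, 7.60 and 7.71 in untreated Ahr-/- skin (difference 0.33 ± 0.35, adjusted p = 0.531). For Ahr+/- mice the same set read 7.94, 7.81 and 7.75 after IMQ, above 7.58, 5.85 and 7.29 without treatment (difference 0.93 ± 0.35, adjusted p = 0.119). On day 2 the genotypes differed by -0.00 ± 0.35, with an interval of -0.77 to 0.76. The other set averaged 7.51 over all arrays, against 7.52 for the brightest. It read 8.20, 8.19 and 8.64 in IMQ-treated Ahr-/- skin and 6.94, 7.41 and 7.44 in untreated Ahr-/- skin, a rise of 1.08 ± 0.29 (adjusted p = 0.0178). Among Ahr+/- mice it read 7.93, 7.71 and 7.71 after IMQ and 7.38, 5.93 and 6.68 without treatment, a rise of 1.12 ± 0.29 (adjusted p = 0.0284). Whether Tlr4 counts as raised by IMQ therefore depended on which of these sets was read, and why they differ was not tested.

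**Figure D2:**
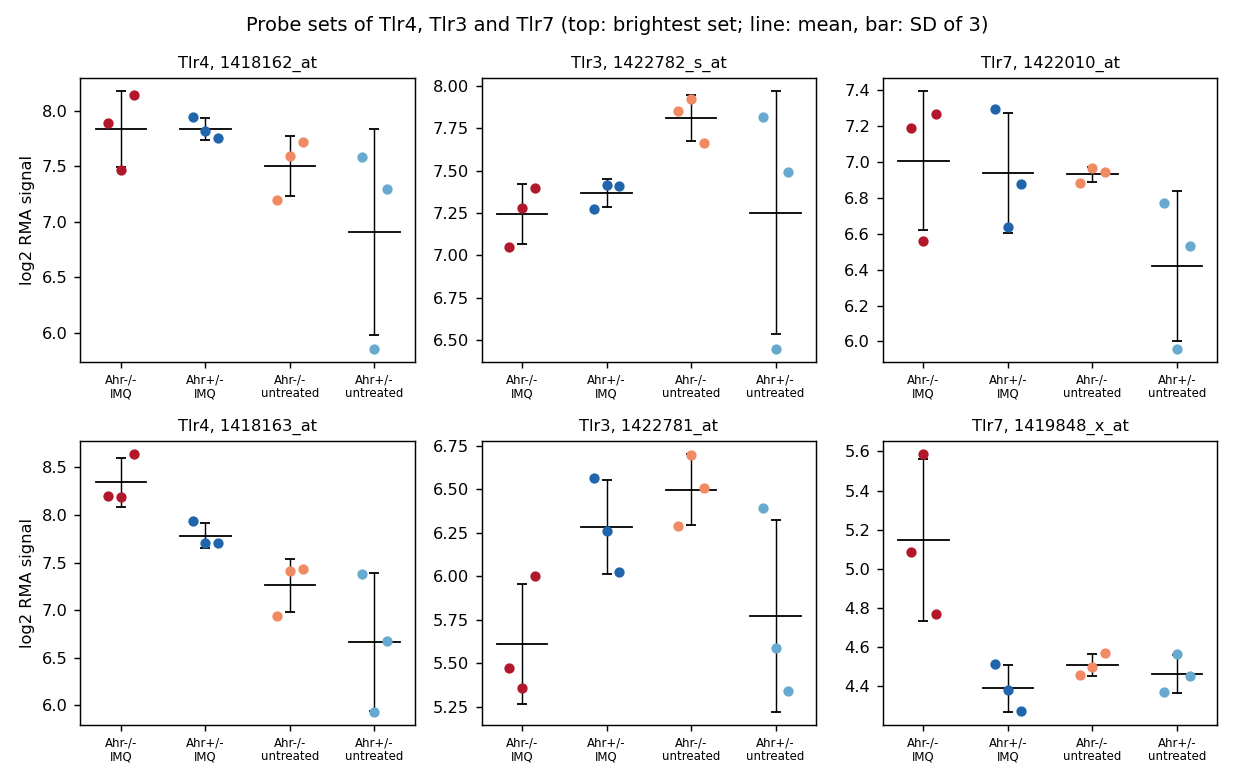
Log2 RMA signals on every array (points), with the mean (line) and SD (bar) of 3 arrays, for the brightest probe set (top) and another set (bottom) of Tlr4, Tlr3 and Tlr7, each panel on its own scale. The lower Tlr4 set separates IMQ-treated from untreated skin in both genotypes, by 1.08 in Ahr-/- and 1.12 in Ahr+/- skin, whereas the upper set overlaps in Ahr-/- skin.

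Myd88, the adaptor gene with an ISRE match next to its start, rose in both genotypes. It read 10.68, 10.53 and 10.28 in IMQ-treated Ahr-/- skin, against 9.44, 9.38 and 9.36 in untreated Ahr-/- skin, a difference of 1.10 ± 0.21 and a fold of 2.15 (adjusted p = 0.00252). The Ahr+/- arrays read 10.24, 10.16 and 9.93 after IMQ and 9.85, 8.84 and 9.37 without treatment, a difference of 0.76 ± 0.21 and a fold of 1.69 (adjusted p = 0.0428). In neither genotype did the treated and untreated arrays overlap. On day 2 all 3 Ahr-/- arrays lay above the 3 Ahr+/- arrays, at a difference of 0.39 ± 0.21 that did not pass the test (adjusted p = 0.323). The difference between the responses of the genotypes was 0.35 ± 0.30 (adjusted p = 0.594).

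**Figure D3:**
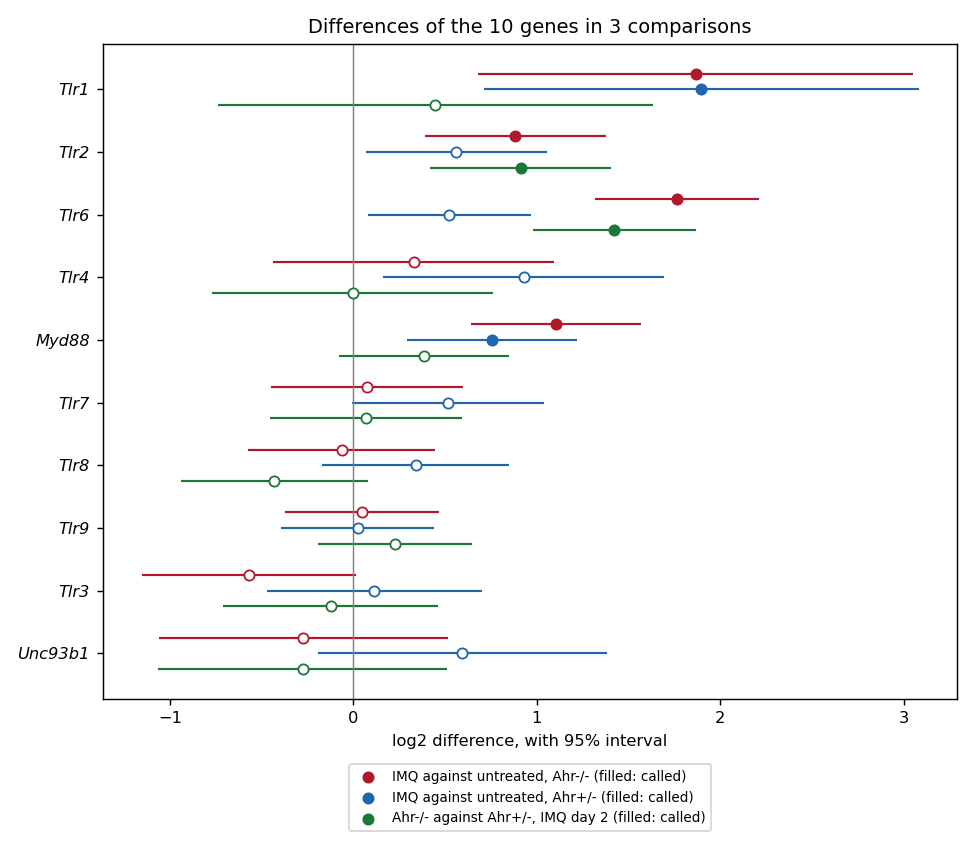
Points are log2 differences of the 10 genes for IMQ against untreated skin in Ahr-/- (red) and Ahr+/- (blue) mice and for Ahr-/- against Ahr+/- skin on day 2 of IMQ (green), with 95% intervals, and filled points were called. Filled points appear for Tlr1, Tlr2, Tlr6 and Myd88 only, and the interval of Tlr7 in Ahr-/- skin runs from -0.45 to 0.60.

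Separation of the arrays was counted beside the same count over all genes. After IMQ in Ahr-/- skin, 4 of the 10 genes had all treated arrays above all untreated ones, against 21.7% of all genes. In Ahr+/- skin it was again 4 of 10, against 15.4%, these being Tlr1, Tlr4, Tlr6 and Myd88. On day 2, 4 of 10 had all Ahr-/- arrays above all Ahr+/- arrays, Tlr1, Tlr2, Tlr6 and Myd88, against 18% of all genes. Without treatment none of the 10 was called between the genotypes, where 0.0055% of all genes were. The mean was higher in Ahr-/- skin for 9 of the 10, against 9815 of all 18193 genes. An unadjusted p under 0.05 was reached by 1 of the 10 and by 1180 of all 18193 genes. Untreated Ahr+/- replicate 2, the lowest of the 12 arrays for 8 of the 10 genes, is in this comparison, and its part was not tested. These untreated differences ran from -0.03 for Tlr8 to 0.59 for Tlr4, Unc93b1 and Tlr2, and were 0.04 for Myd88, 0.21 for Tlr9, 0.48 for Tlr1 and 0.56 for Tlr3. On day 2 the differences not given with the genes were 0.23 for Tlr9, -0.12 for Tlr3 and -0.28 for Unc93b1. The responses of the genotypes to IMQ differed by a call for none of the 10, against 1.32% of all genes. For this difference 1 of the 10, Tlr6, had an unadjusted p under 0.05, against 3185 of all 18193 genes. The responses differed by -0.68 for Tlr3, -0.60 for Tlr4, -0.44 for Tlr7, -0.40 for Tlr8 and 0.02 for Tlr9.

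The calls in Ahr+/- skin and that of Tlr2 between the genotypes lay near the threshold. When 1 array was left out at a time, Tlr6 stayed called in all 12 fits both under IMQ in Ahr-/- skin and between the genotypes on day 2, with differences of 1.56 to 1.95 and of 1.22 to 1.61. Tlr2 and Myd88 under IMQ in Ahr-/- skin also stayed called in all 12. The call of Tlr1 in Ahr-/- skin was lost without IMQ-treated Ahr-/- replicate 1 or 2 or untreated Ahr-/- replicate 1 or 3 (adjusted p up to 0.0813). The Ahr+/- calls of Tlr1 (adjusted p up to 0.164) and of Myd88 (up to 0.147) were each lost in 10 of 12 fits, the exceptions being without untreated Ahr+/- replicate 1 or untreated Ahr-/- replicate 2 for Tlr1 and without untreated Ahr+/- replicate 1 or IMQ-treated Ahr-/- replicate 3 for Myd88. Leaving out untreated Ahr+/- replicate 2, the array with the lowest signals, brought the difference of Tlr1 to 1.42 and that of Myd88 to 0.50 (adjusted p = 0.0976 and 0.0843). Leaving out untreated Ahr+/- replicate 1 instead gave 6 calls in Ahr+/- skin, Tlr1, Tlr2, Tlr4, Tlr6, Myd88 and Unc93b1. The call of Tlr2 between the genotypes was lost in 10 of 12 fits (adjusted p up to 0.164) and was kept without untreated Ahr+/- replicate 1 or 2.

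The Gapdh difference was largest on 2 of the 3 IMQ-treated Ahr-/- arrays, so the calls in that group were repeated without these. With the remaining array, assumed to vary like the other groups, Tlr6 kept a rise of 1.39 with IMQ in Ahr-/- skin (adjusted p = 0.0102) and was 1.05 higher in Ahr-/- mice on day 2 (adjusted p = 0.17). Tlr2 was 1.03 higher after IMQ (adjusted p = 0.101) and 1.06 higher between the genotypes (adjusted p = 0.346). Treated Ahr-/- skin had 0.89 more Myd88 signal (adjusted p = 0.121) and 1.68 more Tlr1 signal (adjusted p = 0.281) on the log2 scale. Each of these differences kept its direction, and of these calls only that of Tlr6 under IMQ was kept. With all arrays and the Gapdh difference as a covariate, Tlr6 was 1.45 higher with IMQ in Ahr-/- skin (adjusted p = 0.0035) and 1.03 higher between the genotypes on day 2 (adjusted p = 0.205).

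Of 59 other genes of the pathway, 52 were measured. After IMQ in Ahr-/- skin 13 were called, 11 higher and 2 lower, and in Ahr+/- skin 8 were called, all higher, where 22.7% of all genes in Ahr-/- and 9.05% in Ahr+/- skin were called in either direction. The median difference of the 52 genes was 0.14 in Ahr-/- and 0.18 in Ahr+/- skin. Between the genotypes on day 2, 3 were called, 2 higher and 1 lower in Ahr-/- skin, where 3.98% of all genes were called in either direction. Without treatment none was called, where 0.0055% of all genes were. An unadjusted p under 0.05 was reached there by 4 of the 52, against 1180 of all 18193 genes. Leaving out 1 array at a time gave 1 to 7 calls on day 2, with 1 call without IMQ-treated Ahr-/- replicate 1 or 2 or IMQ-treated Ahr+/- replicate 2 or 3. Without both IMQ-treated Ahr-/- replicates 1 and 2, the arrays with the large Gapdh difference, 5 pathway genes were called under IMQ in Ahr-/- skin and 0 on day 2.

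**Figure D4:**
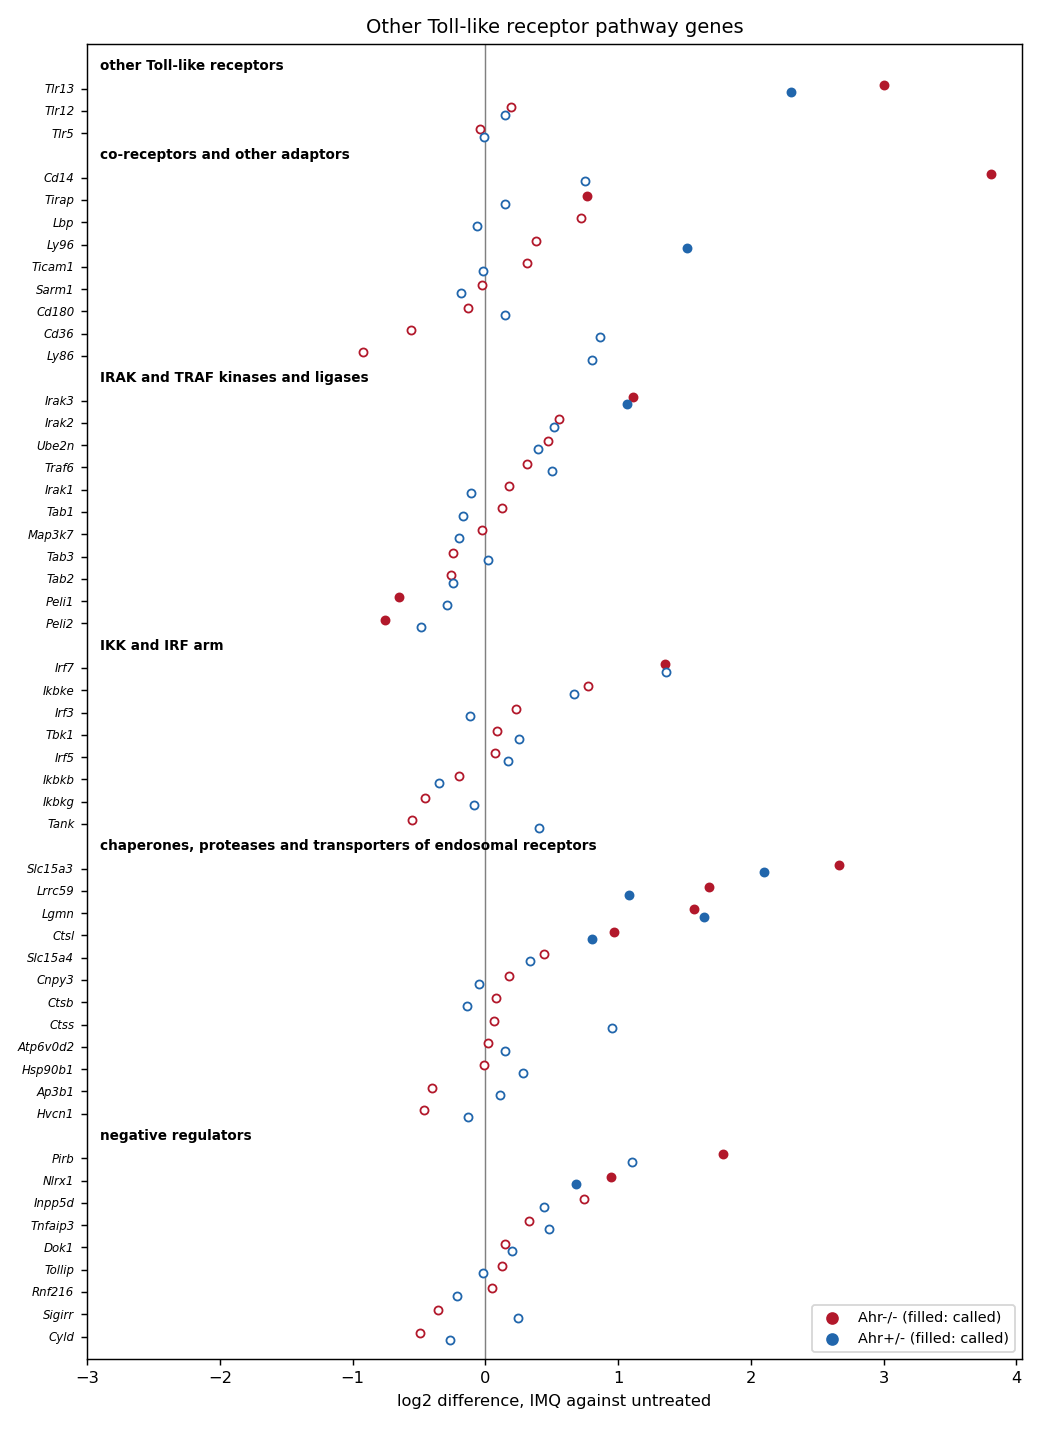
Log2 differences of the 52 other pathway genes between IMQ-treated and untreated skin in Ahr-/- (red) and Ahr+/- (blue) mice, grouped by role and ordered by the difference in Ahr-/- skin, with called genes filled. Cd14 at 3.81 and Tlr13 at 3.00 lie farthest right in Ahr-/- skin, and Tlr13 at 2.30 in Ahr+/- skin.

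Among the other receptors, Tlr13, which in the mouse recognises bacterial ribosomal RNA in endosomes, rose more than any of the 10 genes. Tlr13 read 8.998, 9.12 and 8.97 in IMQ-treated Ahr-/- skin, against 5.61, 6.43 and 6.05 in untreated Ahr-/- skin, a difference of 3.00 ± 0.36 (adjusted p = 0.000106). It read 8.59, 7.41 and 7.48 in IMQ-treated Ahr+/- skin, against 6.33, 5.03 and 5.22 in untreated Ahr+/- skin, a difference of 2.30 ± 0.36 (adjusted p = 0.00189). All treated arrays of each genotype lay above their untreated arrays, and on day 2 the difference between the genotypes, 1.201, did not pass the test (adjusted p = 0.0834). Tlr5 and Tlr12 gave no call.

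Of the 9 measured co-receptors and other adaptors, 2 rose in Ahr-/- skin, where 10.6% of all genes did, and 1 in Ahr+/- skin, where 5.22% did. Cd14, which hands lipopolysaccharide and lipopeptides to TLR4 and TLR2, read 12.34, 12.85 and 12.28 in IMQ-treated Ahr-/- skin, against 8.73, 8.77 and 8.58 in untreated Ahr-/- skin. Among Ahr+/- mice it read 9.76, 8.80 and 8.60 after IMQ and 8.98, 7.42 and 8.50 without treatment. The IMQ-treated Ahr-/- arrays stood apart from the 9 others, with a rise of 3.81 ± 0.37 in Ahr-/- skin (adjusted p = 1.95e-05), a difference of 0.75 ± 0.37 in Ahr+/- skin (adjusted p = 0.226) and a difference between these responses of 3.06 ± 0.52 (adjusted p = 0.0174). The last call was lost without untreated Ahr-/- replicate 1 or 3, IMQ-treated Ahr+/- replicate 2 or 3 or IMQ-treated Ahr-/- replicate 2. It was also lost with the Gapdh difference as a covariate. Tirap, the adaptor that bridges TLR2 and TLR4 to MyD88, was 0.77 ± 0.16 higher after treatment in Ahr-/- mice (adjusted p = 0.00361), and it was 0.73 ± 0.16 higher in Ahr-/- mice on day 2 (adjusted p = 0.0254). Ly96, whose product MD-2 is the part of the TLR4 complex that binds lipopolysaccharide, rose with IMQ in Ahr+/- mice by 1.52 ± 0.24 (adjusted p = 0.00207) and differed by 0.38 in Ahr-/- skin (adjusted p = 0.269), and the difference between these responses was not called (adjusted p = 0.116).

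Of 12 measured genes that process or serve the endosomal receptors, the same 4 were called higher in both genotypes and none lower, where 10.6% of all genes were called higher in Ahr-/- and 5.22% in Ahr+/- skin. Lgmn, an endosomal protease that cleaves TLR9, had a rise of 1.57 ± 0.28 in Ahr-/- mice (adjusted p = 0.00149) and one of 1.65 ± 0.28 in Ahr+/- mice (adjusted p = 0.00329). Slc15a3, a lysosomal peptide and histidine transporter, rose by 2.66 ± 0.38 in Ahr-/- and 2.10 ± 0.38 in Ahr+/- skin (adjusted p = 0.000363 and 0.00488). Lrrc59, which helps endosomal receptors leave the endoplasmic reticulum, rose by 1.69 in Ahr-/- and 1.08 in Ahr+/- skin, and the cathepsin gene Ctsl by 0.97 in Ahr-/- and 0.81 in Ahr+/- skin. Hsp90b1 and Cnpy3, chaperones that fold most Toll-like receptors, gave no call, with differences of -0.01 and 0.18 in Ahr-/- skin and 0.28 and -0.05 in Ahr+/- skin.

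Downstream of MyD88, 3 of 11 measured IRAK and TRAF pathway genes were called in Ahr-/- skin and 1 in Ahr+/- skin, shares near the 22.7% and 9.05% of all genes called there. Irak3, which encodes IRAK-M, an inhibitor of the IRAK complex, rose by 1.11 ± 0.28 in Ahr-/- and 1.06 ± 0.28 in Ahr+/- skin (adjusted p = 0.0104 and 0.0303). The ubiquitin ligase genes Peli1 and Peli2 fell by 0.65 and 0.76 in Ahr-/- skin (adjusted p = 0.00881 and 0.00507), and on day 2 Peli1 was lower in Ahr-/- mice, with a difference of -0.64 ± 0.16 (adjusted p = 0.0417). Of the 8 measured genes of the IKK and IRF arm only Irf7, the interferon regulatory factor downstream of TLR7 and TLR9, was called, with a rise of 1.35 ± 0.42 in Ahr-/- skin (adjusted p = 0.0295). The same gene differed by 1.36 in Ahr+/- skin, just short of the threshold (adjusted p = 0.0579). Among 9 measured negative regulators, Nlrx1 rose in Ahr-/- and in Ahr+/- skin, by 0.94 and 0.68 (adjusted p = 0.00394 and 0.0468), and Pirb, an inhibitory receptor of myeloid cells and B cells, rose by 1.79 ± 0.35 in Ahr-/- skin (adjusted p = 0.00262).

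The genes nearest to each called gene in pattern were found by the root mean square distance over the 12 arrays after subtracting each gene's own mean, and are given as a description. For Tlr6, whose own spread on this measure was 0.80, they were Rasip1 (0.17), Fgr (0.19), Nfkbid (0.20), Adgrg3 (0.20) and Pstpip1 (0.21). For Tlr2, with a spread of 0.58, they were Scn3b (0.18), Plvap (0.19), Cd93 (0.20), Csf2rb2 (0.21) and Dram1 (0.23). Rasip1, Plvap and Cd93 are known from endothelial cells, and Fgr, Adgrg3 and Pstpip1 from myeloid cells. No cell type is given here for the other genes, and which cells gave these signals was not tested. For Tlr1 (spread 1.18) they were Irf7 (0.38), Fcer1g (0.42), Lgmn (0.43), Ccl2 (0.43) and AB124611 (0.44), 2 of which are also in the pathway lists. For Myd88 (spread 0.54) they were Retsat (0.14), Fam126a (0.15), Pkm (0.16), Alas1 (0.16) and Txnrd3 (0.17), and for Tlr7 (spread 0.36) Lrp11 (0.15), Dnajb9 (0.15), Usp25 (0.15), Rgs19 (0.16) and Snx10 (0.18). The arrays share 4 groups, so genes that follow the groups are close to each other on this measure.

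Markers of cell types that can carry these receptors were read in the same groups, and the lists did not all move alike. The 8 measured neutrophil markers of 10 averaged 9.37 to 9.46 in IMQ-treated Ahr-/- skin, against 7.87 to 8.66 in IMQ-treated Ahr+/- skin, and 5.58 to 6.003 in untreated Ahr-/- and 5.53 to 5.80 in untreated Ahr+/- skin. IMQ raised 5 of the 8 in Ahr-/- skin and 4 in Ahr+/- skin, and 3 of them, Csf3r, Cxcr2 and Mmp8, were higher in Ahr-/- mice on day 2, as Tlr2 and Tlr6 were. Over all genes 10.6%, 5.22% and 2.12% were called higher in these comparisons. The markers raised by IMQ in both genotypes included S100a8 and S100a9. The study counts S100a8 among the antimicrobial peptides found in psoriasis lesions, so this list need not follow neutrophils alone. The neutrophil granule genes Mpo, Elane and Ltf gave no call, and 1 marker in IMQ-treated Ahr-/- skin and 2 in each other group averaged under 5. The 5 endothelial markers averaged 7.70 to 7.96 in IMQ-treated Ahr-/- skin, against 7.24 to 7.27 in IMQ-treated Ahr+/- skin, and 7.14 to 7.56 in untreated Ahr-/- and 6.40 to 7.63 in untreated Ahr+/- skin. Of these, 3 (Cdh5, Pecam1 and Tie1) were called higher after IMQ in Ahr-/- skin, where 10.6% of all genes were. The 2 others were not called but had all treated Ahr-/- arrays below all untreated ones, as 21.1% of all genes did. The 8 measured macrophage and monocyte markers of 10 averaged 9.56 to 10.36 in IMQ-treated Ahr-/- skin, 9.97 to 10.48 in IMQ-treated Ahr+/- skin, 9.48 to 10.09 in untreated Ahr-/- skin and 8.51 to 10.29 in untreated Ahr+/- skin, and their calls ran both ways. IMQ lowered Ccr2 and Csf1r in Ahr-/- skin, with differences of -1.07 and -0.87 (adjusted p = 0.0489 and 0.0187), and raised Adgre1 and Itgam in Ahr+/- skin, by 2.24 and 2.61 (adjusted p = 0.000703 and 0.00912). Adgre1 was lower in Ahr-/- mice on day 2 (-1.60, adjusted p = 0.0119), and its responses differed by -2.39 (adjusted p = 0.0223). Plasmacytoid dendritic cells, which in the mouse carry TLR7 and TLR9, were followed by 8 measured markers of 9. These averaged 7.65 to 7.79 in IMQ-treated Ahr-/- and 7.69 to 7.81 in IMQ-treated Ahr+/- skin, against 7.57 to 7.71 in untreated Ahr-/- and 7.25 to 7.62 in untreated Ahr+/- skin. In this list Tcf4 was called lower and Ly6d higher after IMQ in both genotypes, and Ccr9 higher in Ahr+/- skin. The 6 measured keratinocyte markers of 7 averaged 11.81 to 12.15 in IMQ-treated Ahr-/- skin, 12.62 to 13.65 in IMQ-treated Ahr+/- skin, 12.91 to 13.24 in untreated Ahr-/- skin and 12.72 to 13.27 in untreated Ahr+/- skin. Of these, Krt1, Krt10 and Lor were called lower and Krt14 higher after IMQ in Ahr-/- skin, Krt5 and Krt14 higher in Ahr+/- skin, and Krt1 and Krt10 lower in Ahr-/- mice on day 2. Other lists gave calls as higher and lower after IMQ, first in Ahr-/- and then in Ahr+/- skin. These were 1 and 2, then 1 and 1, of 7 conventional dendritic cell markers, and 1 and 2, then 2 and 0, of 4 Langerhans cell markers. For 6 T cell markers they were 0 and 3, then 0 and 1, and for 6 mast cell markers 1 and 2, then 1 and 0. Of 5 B cell markers 1 was called, higher in Ahr+/- skin. Over all genes 22.7% and 9.05% were called. The part of these cell types in the differences of the receptor genes was not tested.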

How the data were processed

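The values deposited by the authors are log2 signals of probe sets, made from 12 Affymetrix arrays with RMA in the R package affy (versions not given in the sources used here), which corrects for background, applies quantile normalization across arrays and combines the probes of each set. Of 45101 probe sets, 64 controls, 932 annotated to several genes and 9160 without a symbol were left out, and 34945 sets stood for 18193 genes, each gene read from its set with the highest mean, with no filter on dim genes. No set of the 10 genes was annotated to a further gene. The 4 group means were fitted with limma 3.58.1 in R 4.3.3 (8 residual and 4.44 prior degrees of freedom), in 5 comparisons: IMQ against untreated in each genotype, Ahr-/- against Ahr+/- on day 2 and untreated, and the difference between the responses. Other probe sets were tested with all 34945 sets adjusted together. The number of arrays limits the precision. On simulated data of 18193 genes, 100 genes were changed 2-fold and 100 genes 4-fold, with normal noise of 1 spread per gene in all groups. There 71% of 2-fold and 91% of 4-fold changes were recovered for IMQ in Ahr-/- skin, and 27% and 78% for the difference between responses. In the data 22.7% of genes were called for IMQ in Ahr-/- skin and spreads differed between groups, so these shares need not hold for the data.

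All 10 genes are described. Of each pathway list, the called genes were named (the 5 with the largest change where over 5 were called), together with Ahr and, for Tlr7 and each called gene, the 5 genes nearest in pattern; Tlr5, Tlr12, Hsp90b1, Cnpy3, the cell type markers named and the uncalled comparisons of named genes were added after their values were seen. The genes and lists were chosen with earlier results of these data known, so their counts are descriptions. The rank product test of the study's methods, which resamples ranks over genes, was not run. Promoters are from RefSeq (GRCm38.p6). Figures were drawn with matplotlib 3.10.9 under Python 3.11.15.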

Additional observations from a re-analysis of the deposited data

Results flagged for a closer look

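Probe sets that the comparisons of the report did not read held signals past the threshold for 3 of the 10 genes. A dim Tlr7 set was 0.641 higher after IMQ in Ahr-/- skin and, on day 2, 0.759 higher in Ahr-/- mice than in Ahr+/- mice, and its values on the treated Ahr-/- arrays had the same order as the Gapdh difference of those arrays. The second Tlr3 set differed by -0.887 after IMQ in Ahr-/- skin, and its treated values had the reverse order of the Gapdh difference. The second Tlr4 set was 1.08 higher after IMQ in Ahr-/- skin and 1.12 higher in Ahr+/- skin. Of the pathway genes, Cd14 responded differently in the genotypes by the test of the difference itself, by 3.06 more in Ahr-/- skin. That call was lost with the Gapdh difference as a covariate and when some single arrays were left out.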

How the results depend on the processing

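Over 26 alternatives (25 for the difference between responses), 1172 of 1290 values of single genes kept their direction and side of the threshold, 56 lost a call, 17 gained one and 45 changed sign, none of the 45 being called either way. The cause of these changes was not tested. An adjusted p under 0.01 left 2, 0 and 1 of the 10 genes called for IMQ in Ahr-/- skin, IMQ in Ahr+/- skin and Ahr-/- against Ahr+/- skin on day 2, where the main counts were 4, 2 and 2, and 1 and 0 pathway genes on day 2 and for the difference between responses (main 3 and 1). The Gapdh difference as a covariate left 2, 0 and 0 genes and 0 and 0 pathway genes in the same order; without IMQ-treated Ahr-/- replicates 1 and 2 there were 1, 0 and 0 genes and 0 and 0 pathway genes, with 5 for IMQ in Ahr-/- skin (main 13). Fitting only the groups compared gave 0 genes for IMQ in Ahr+/- skin and 6 pathway genes on day 2, and a variance trend with robust priors gave 1 gene for IMQ in Ahr+/- skin. For the difference between responses, centring on array medians gave 1 gene (Tlr6) and array weights 2 genes (Tlr6 and Unc93b1) and 7 pathway genes, with 9 pathway genes on day 2. Deviations of same-numbered arrays from their group means had correlations of -0.184 to 0.316 (7 of 18 over 0.1). With 3 arrays per group these cannot settle whether same-numbered arrays are pairs, and the labels name no pairs. With the replicate block 1 gene (Tlr6) was called on day 2, and the call of Tlr2 was lost (0.911, adjusted p = 0.0574). Leaving out 1 array gave 0 to 6 genes and 6 to 13 pathway genes for IMQ in Ahr+/- skin, 1 to 2 and 1 to 7 on day 2, 0 to 1 and 0 to 2 untreated, and 0 to 1 and 0 to 3 for the difference between responses. Signs turned under other settings for Tlr4 on day 2 (0.306 with Gapdh or without the 2 arrays, 0.0387 weights, 0.00386 centring, 0.00712 quantiles again, 0.27 mean of sets, 0.559 with the other Tlr4 set, chosen after seeing the data), Tlr3 (-0.000917 in Ahr+/- skin with weights, 0.0327 on day 2 without the 2 arrays), Tlr8 under IMQ in Ahr-/- skin (0.143 Gapdh, 0.322 without the 2 arrays), Tlr9 there (-0.0125 Gapdh, -0.0227 quantiles) and between responses (-0.0536 and -0.0563), and between responses Tlr1 (0.0112 centring) and Tlr7 (0.161 mean of sets). Leaving out 1 array, signs turned within -0.0558 to 0.298 for Tlr7, -0.254 to 0.149 for Tlr8 and -0.0498 to 0.221 for Tlr9 under IMQ in Ahr-/- skin, -0.132 to 0.195 for Tlr9 and -0.289 to 0.397 for Tlr3 in Ahr+/- skin, -0.0815 to 0.291 for Tlr7 and -0.16 to 0.178 for Tlr4 on day 2, -0.108 to 0.0827 for Tlr8 and -0.215 to 0.286 for Myd88 untreated, and -0.15 to 0.198 for Tlr9 and -0.878 to 0.446 for Tlr1 between responses.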
